A study of Canis lupus familiaris with 33 samples.

Results

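A set of 9 HOX genes, 4 from the HOXA cluster (HOXA4, HOXA5, HOXA10 and HOXA13) and 5 from the HOXB cluster (HOXB2, HOXB3, HOXB5, HOXB7 and HOXB13), were followed through RNA sequencing of canine invasive urothelial carcinoma (iUC). They were taken by symbol from the TMM-normalized table, where each has 1 row, and make up 9 of its 25096 genes. The groups were 4 samples of normal canine bladder mucosa (normals A to D) and 29 iUC tumors, 1 tumor per dog. The tumors were cystoscopic biopsies from dogs that had not been treated, and the normals were the mucosal layer dissected from bladders of dogs euthanized for conditions outside the bladder. The sample titles name the normals normal mucosa, and the labels give no age, sex or breed for either group.

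HOX genes encode homeodomain transcription factors that give cells their position along the body axis. They lie in clusters, and the low-numbered genes at one end of a cluster act toward the head while the high-numbered genes at the other end act toward the tail, an order known as colinearity. Adult tissues keep a HOX pattern of their place of origin, and the posterior genes HOXA13 and HOXB13 are known for their roles in the urogenital tract, HOXB13 above all in the prostate.

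Values are given as log2 normalized expression relative to each gene's own median in the 33 samples, so 0 is the gene's own median, a step of 1 is a 2-fold step, and values cannot be set against each other between genes. Many genes have a floor, a lowest value that several samples share and that stands for a normalized value of 1. Genes above their floor in at least 4 samples were tested, and all 9 members were. Only HOXB2 touched its floor, in 2 tumors. The libraries of the groups differed outside the HOX genes. All 5 smooth muscle markers tested were lower in tumors, with a mean marker level from 4.74 to 6.75 in the normals and from -1.23 to 3.58 in the tumors, while 3 of 3 epithelial markers were higher (EPCAM by 2.18 ± 0.36 SE on the log2 scale, adjusted p = 2.31e-06, limma). All 133 olfactory receptor genes lay above their floor in every normal, against 4.51% to 58.6% of them in 26 tumors and 76.7% to 91.7% in tumors 5, 9 and Po. Of the other lists, 7 of 8 stromal fibroblast and 2 of 2 nerve markers were lower, 5 of 5 proliferation genes higher, and of 11 luminal urothelial markers 7 were higher and 1 lower. Of 6 basal or squamous markers 1 was higher and 1 lower. Of 7 T cell markers and 6 B and plasma cell markers 1 each was lower. Of 3 macrophage markers 1 was higher, and of 5 endothelial markers 0 were called. Over all genes tested, 10.7% were higher and 45.8% lower. The part of the smooth muscle, stromal and nerve differences in the tumor-normal values was not tested, and fits with the olfactory share as a covariate are given for the called members. That share was 100% in every normal and lower in every tumor, so the covariate is tied to group. Share and group therefore cannot be fully told apart in these fits, and a call lost in them is hard to read.

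The first question was how far each gene differed between the normal mucosa and the tumors. As given above, the normals carried more smooth muscle, stromal and nerve marker RNA. Of the 9 members, 3 (HOXA10, HOXB7 and HOXB13) were higher in tumors, and 0 were lower. The call asks for a 2-fold change and an adjusted p no larger than 0.05 (limma, Benjamini-Hochberg over all genes tested). Of the 9, 2 were higher in the DESeq-normalized table, HOXA10 and HOXB13, and 0 lower, and 0 members were lower at an unadjusted p under 0.05. Of the 24471 genes tested, 10.7% were called higher and 45.8% lower. Among the 18418 genes with a median above their floor, which include all 9 members, 14.2% were higher and 30.4% lower. The median change of the members was 0.24 on the log2 scale, against -0.84 over all genes tested and -0.01 over those 18418 genes. In such bulk samples, fewer cells of a type and less RNA per cell cannot be told apart.

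Within the HOXA cluster, HOXA10, known for its part in the development of the uterus and for work in blood progenitors, separated the groups most clearly. Its normal values were -1.69, -1.25, -1.34 and -0.89 in samples A to D. The 29 tumors ran from -0.91 in tumor Da6 through a median of 0.12 to 2.54 in tumor 11, and 28 of 29 lay above every normal, the exception being Da6. The difference was 1.41 ± 0.32 (SE) on the log2 scale or 2.65-fold, with an adjusted p of 0.000206 by limma and an exact two-sided permutation p of 4.89e-05 over the samples. It was called in all 15 alternatives, with changes from 1.11 to 1.54, among them 1.42 with the olfactory share as a covariate (adjusted p = 0.0138, limma).

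HOXA5, a gene of lung and trunk patterning, had normal values of -0.82, -0.64, -1.23 and -0.44. Its tumor values ran from -1.93 (tumor Da6) through 0.09 to 3.66 (tumor 11), and 24 of 29 tumors lay above every normal. With a tumor SD of 1.04 the difference of 0.86 ± 0.52 did not pass the test (adjusted p = 0.135, limma). HOXA4, its neighbour toward the anterior end, split the normals themselves: A and D read 0.90 and 0.98, B and C -0.72 and -1.25. The tumors covered all of that range, from -3.50 in tumor Ab through 0.00 to 2.24 in tumor 11, and the difference was -0.25 ± 0.65 (adjusted p = 0.736, limma).

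HOXA13, the last gene of the cluster and a regulator of genital, distal limb and hindgut development, was the most even member in the normals, at -0.50, -0.36, -0.25 and -0.24. In the tumors it ran from -2.14 (tumor Da6) through 0.04 to 1.44 (tumor 11), so that 19 tumors lay above and 7 below every normal. The difference of 0.22 ± 0.37 did not pass (adjusted p = 0.609, limma). Its SD was 0.12 in 4 normals and 0.75 in 29 tumors.

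In the HOXB cluster the posterior gene HOXB13 showed the largest difference of the 9. Normals A to D read -1.56, -1.75, -1.05 and -1.42, and the tumors ran from -2.49 (tumor Za) through 0.38 to 3.49 (tumor Ab). Of the 29 tumors, 26 lay above every normal and 1 below, and the difference was 1.75 ± 0.55 or 3.37-fold (adjusted p = 0.00521, limma, and exact permutation p = 0.00499). The call was lost in 1 of 15 alternatives, with the olfactory share as a covariate, where the difference was 1.496 (adjusted p = 0.132, limma). HOXB7, a mid-cluster gene, read -0.51, -1.19, -1.03 and -1.83 in the normals and from -2.78 (tumor Sp) through 0.05 to 3.72 (tumor Ab) in the tumors. Of these, 25 lay above every normal and 2 below. Its difference of 1.19 ± 0.51 or 2.28-fold stood near the threshold (adjusted p = 0.038, limma, and exact permutation p = 0.0548). The HOXB7 call was lost in the DESeq-normalized table (0.89, adjusted p = 0.121) and without normal B, C or D (adjusted p from 0.0656 to 0.15, limma), as well as with a weight for each group (adjusted p = 0.0567) and with the olfactory share as a covariate (0.65, adjusted p = 0.492).

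HOXB2, a hindbrain segment gene, was the most variable member. The normals lay close together at 1.94, 1.96, 1.33 and 0.97, and the tumors on both sides of them, from -3.92 in the 2 tumors at its floor through -0.32 to 5.52 in tumor Ab. Of the 29 tumors, 10 were above every normal, 18 below, and 1 between. The tumor SD of 2.45 was larger than that of 99.1% of the genes tested over tumors, and the difference of -1.45 ± 1.20 did not pass (adjusted p = 0.28, limma). HOXA10, by contrast, had a tumor SD of 0.62, larger than that of 42.8%.

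HOXB3, which acts beside HOXB2 in the hindbrain, read 0.68, 0.10, -0.39 and -0.64 in the normals and from -1.57 (tumor Za) through 0.00 to 2.70 (tumor Ab) in the tumors. HOXB5, known for enteric nerve and gut development, read 0.79, -0.29, -0.23 and 0.48 in the normals and from -2.11 (tumor Da6) through 0.00 to 3.14 (tumor Ab) in the tumors. For both genes the normals sat inside the tumor range, with differences of 0.24 ± 0.49 (adjusted p = 0.663, limma) and -0.13 ± 0.61 (adjusted p = 0.857).

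**Figure D1:**
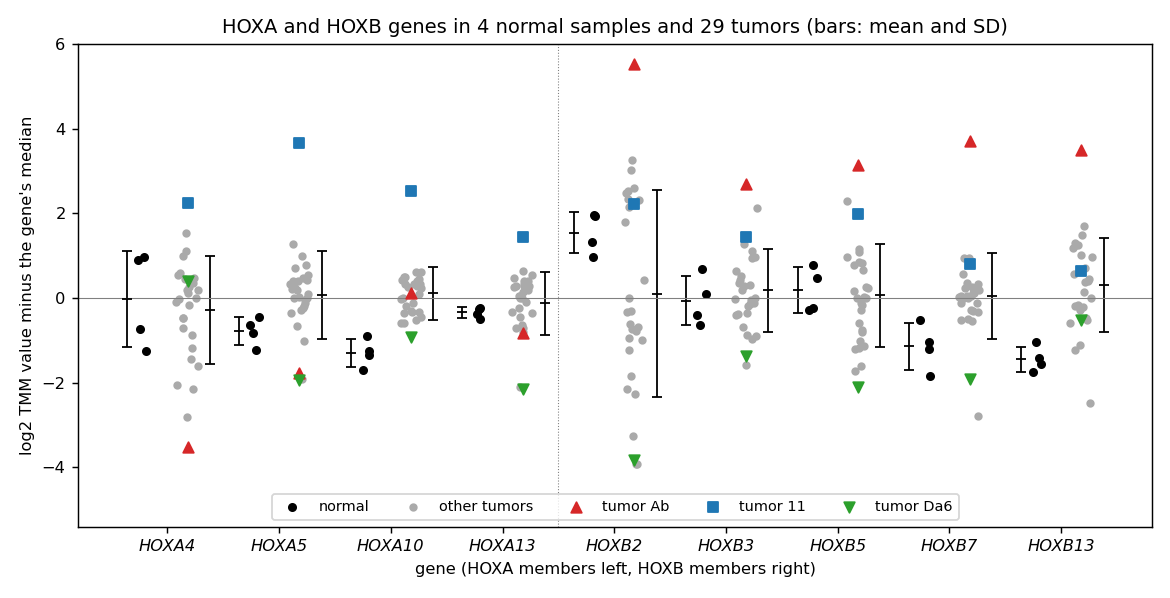
Log2 TMM value minus the gene's median (y axis) of the 9 genes (x axis) in 4 normals (black) and 29 tumors (grey, with tumors Ab, 11 and Da6 marked), with bars for the mean and SD of each group. For HOXA10 and HOXB13, 28 and 26 tumors lie above every normal, for HOXB2 tumors lie on both sides of the normals, tumor Ab has the highest value of all 5 HOXB members, and tumor 11 that of all 4 HOXA members.

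The other genes of both clusters put these values in order. The table holds 20 HOXA and HOXB genes, and of the 11 that are not members 3 were higher (HOXA6, HOXB4 and HOXB6) and 3 lower (HOXA2, HOXA3 and HOXB1) at the thresholds above, beside 10.7% and 45.8% of all genes tested. The lower calls were low-numbered genes: HOXA2 by -1.51 ± 0.65 (adjusted p = 0.0382, limma), HOXA3 by -1.50 ± 0.61 (adjusted p = 0.0283) and HOXB1 by -1.40 ± 0.47 (adjusted p = 0.00851), the last at its floor in 24 of 33 samples. All 3 were also lower in the DESeq-normalized table. The HOXB1 median lies at its floor, and lower calls were common among such genes, as given below for CDX1 and CDX2. The table gives HOXA6 and HOXA7 separate Ensembl identifiers but the same Entrez identifier, so the naming of the HOXA6 value is less sure. HOXA6, HOXB4 and HOXB6, named here after their values were seen, rose by 1.27, 1.22 and 1.56 but were not called in the DESeq-normalized table, where they read 0.97, 0.92 and 1.26. With the members included, the 6 genes called higher were numbered 4 to 13 and the 3 called lower 1 to 3. No test of that order was made. In the RefSeq gene table HOXA3 overlaps HOXA4, HOXA5 and HOXA6, HOXA5 overlaps HOXA6, and HOXB3 overlaps HOXB4, HOXB5 and HOXB6. The use of strand in counting is not given in the sources used here, so values of those genes are uncertain against each other. HOXA9 and the HOXC and HOXD genes were not analysed here.

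**Figure D2:**
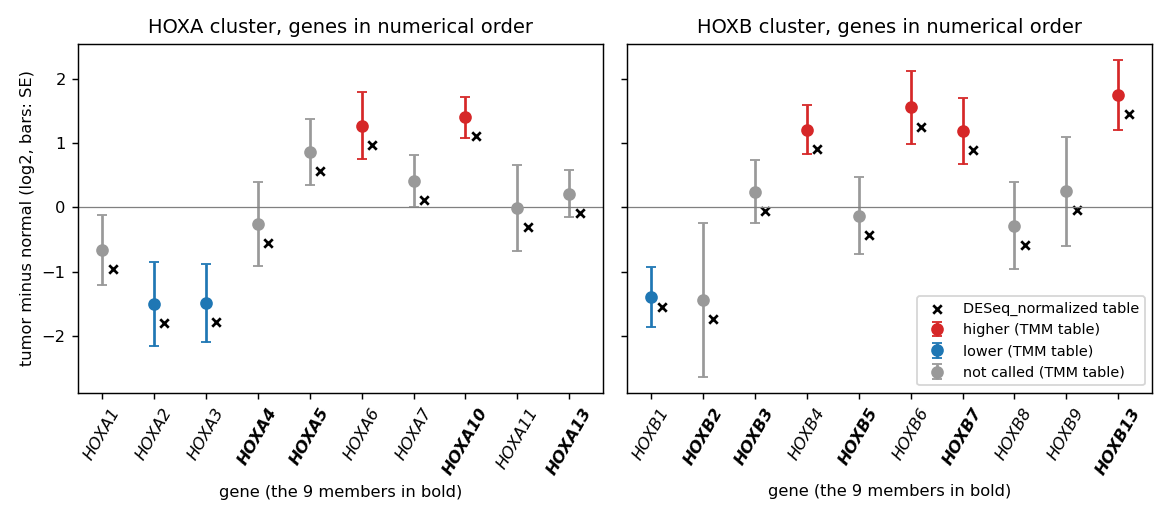
Tumor minus normal difference (y axis, log2, points with SE bars) for the 20 HOXA and HOXB genes in numerical order (x axis, members in bold), coloured by call in the TMM-normalized table, with crosses for the DESeq-normalized table. HOXA2, HOXA3 and HOXB1 were called lower, and HOXA6, HOXA10, HOXB4, HOXB6, HOXB7 and HOXB13 higher.

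HOX proteins bind DNA with TALE homeodomain cofactors of the PBX, MEIS and PKNOX families. Of 6 cofactor genes tested, 0 were higher and 1 was lower, PKNOX2, which fell by 2.65 ± 0.46 (adjusted p = 4.78e-06, limma). At an unadjusted p under 0.05, 0 were higher and 3 lower, and 0 were called higher and 3 lower in the DESeq-normalized table. The other two of the 3 are named after their values were seen: MEIS1 read -0.89 and PBX4 -0.74 in the TMM-normalized table, both under 2-fold, and -1.18 and -1.04 in the other. Of all genes tested, 45.8% were lower. Of 15 regulators of HOX transcription tested, 4 were higher and 2 lower, against 1 higher and 3 lower in the DESeq-normalized table. Beside these, 10.7% of all genes tested were higher and 45.8% lower. The DESeq-normalized table called 1377 genes higher and 12045 lower. Those called in both tables were CBX2, a Polycomb chromatin reader, higher by 2.13 ± 0.27 (adjusted p = 1.58e-08, limma), and the caudal-type factors CDX1 and CDX2, which act upstream of posterior HOX genes and fell by 2.34 ± 0.25 (adjusted p = 2.49e-10) and 2.42 ± 0.57 (adjusted p = 0.000373). CDX1 was at its floor in 23 of 29 tumors and CDX2 in 22, so the size of both changes depends on the floor. Lower calls were common among genes with a median at the floor, as theirs is. Of 11206 lower calls over 24471 genes tested, 5602 fell among the 18418 genes with a median above their floor. The normals had 755 to 1019 genes at their floor and the tumors 3699 to 8175. Both lower calls are therefore not particular to regulators of HOX genes.

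Whether the 9 genes varied together was asked over the 29 tumors alone. For each member, limma was fitted to all 22029 other genes tested, with that member as the covariate, and a pair of members was called only if the fits in both directions passed. Of the 36 pairs, 1 was called: HOXB3 with HOXB5, with Pearson r = 0.81 (permutation p = 1e-05, the smallest that 100000 resamples can give), Spearman rho = 0.73 (permutation p = 2e-05) and an adjusted p of 0.000568 in the weaker direction. Without the 2 tumors farthest from the HOXB3 median its r was 0.70, and without tumor Ab 0.75. The call was lost on ranks, and in fits without the 2 farthest tumors or over the tumors with a number as title. HOXB3 and HOXB5 overlap in the RefSeq table, as given above. Few genes of any kind were called: 0.0136% of genes rose with HOXB3 and 0.0136% with HOXB5.

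All 10 pairs within HOXB were nonetheless positive, with r from 0.43 (HOXB2 with HOXB13) to 0.81 and a median of 0.59, and each lay at or above the 98.6th percentile of r over all genes. All 10 had a permutation p under 0.05 for r, and 7 for rho, before adjustment. The values leaned on tumor Ab, without which r ran from 0.26 to 0.75 with a median of 0.39. HOXB7 with HOXB13 gave r = 0.58 (permutation p = 0.003) and rho = 0.51 (permutation p = 0.00531), and r = 0.34 without tumor Ab. The median r within HOXB was 0.27 over the 18 tumors with a number as title and 0.80 over the 11 with letters, tumor Ab among the latter.

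Within HOXA the 6 pairs had r from 0.01 (HOXA4 with HOXA13) to 0.64 (HOXA5 with HOXA10), with a median of 0.55, and 0 were called by limma, while 4 had an unadjusted permutation p under 0.05. These leaned on tumor 11. HOXA5 with HOXA10 had r = 0.64 (permutation p = 0.00251) and rho = 0.38 (permutation p = 0.04), but r = 0.11 without the 2 tumors farthest from the HOXA5 median, so that relation rests on those tumors. HOXA4 with HOXA5 had r = 0.60 (permutation p = 0.00075) and rho = 0.38 (permutation p = 0.0414), with r = 0.56 without the 2 farthest tumors. The median r of the 6 pairs was 0.33 without tumor 11.

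Between the clusters, r ran from -0.38 (HOXA4 with HOXB7) to 0.40 (HOXA5 with HOXB5) with a median of 0.12, and 0 of 20 pairs were called by limma, 3 having an unadjusted permutation p under 0.05. Single tumors moved this level in both directions: the median r between the clusters was 0.35 without tumor Ab, 0.0086 without tumor 11 and 0.016 without tumor Da6. Without tumor Ab HOXA5 gave r = 0.67 with HOXB3 and 0.68 with HOXB5. With tumor Ab kept but without the 2 tumors farthest from the HOXA5 median, these r were 0.18 and 0.14.

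**Figure D3:**
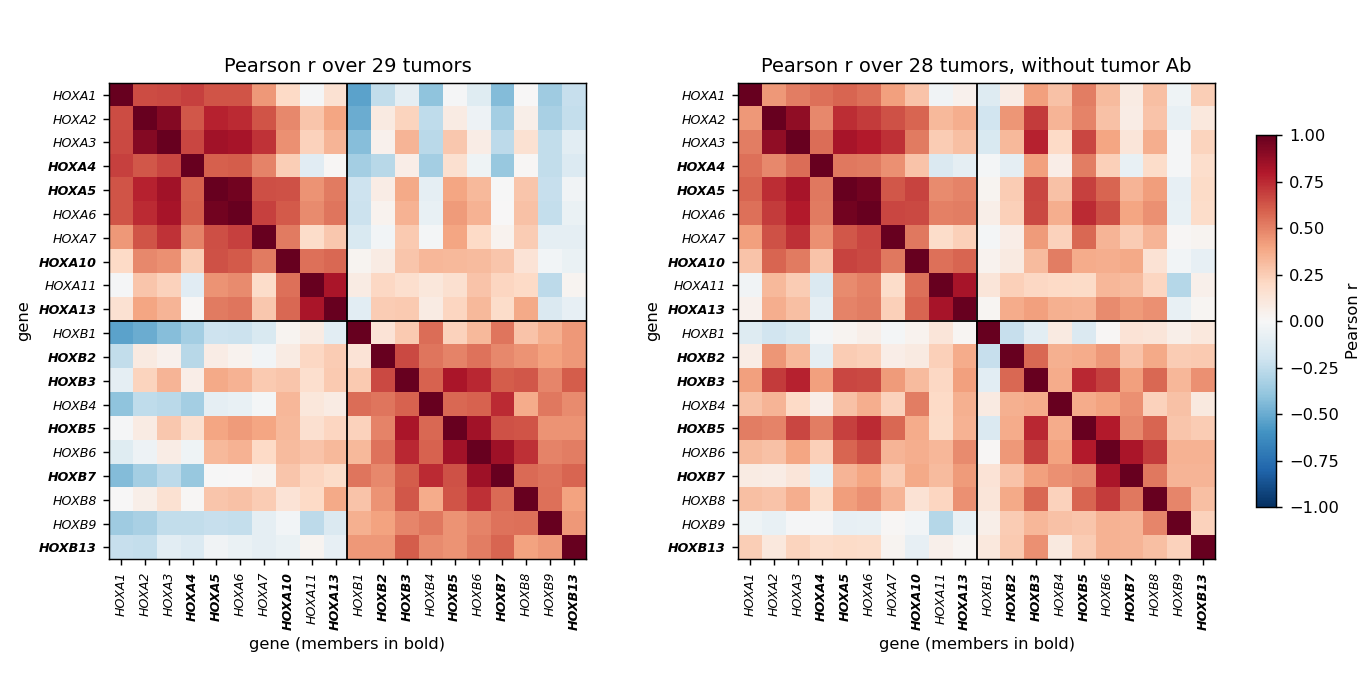
Pearson r (colour, from -1 to 1) between the 20 HOXA and HOXB genes in numerical order (both axes, members in bold) over 29 tumors (left) and over 28 tumors without tumor Ab (right). Blocks of positive r lie within each cluster, and the values between the clusters, from -0.38 to 0.40 among members on the left, are higher on the right.

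Genes far apart in the HOXA cluster had lower r than neighbours, and in the HOXB cluster this showed mainly without tumor Ab. For HOXA genes, neighbours in the gene order of the table had a median r of 0.66 over 9 pairs, genes 2 or 3 places apart 0.62 over 15 pairs, and genes 4 or more places apart 0.43 over 21. For HOXB genes without HOXB1 these medians were 0.58, 0.59 and 0.48, and 0.51, 0.40 and 0.29 without tumor Ab. The pairs share genes, and the values are descriptions. The members that shared most with a neighbour were HOXA5 with HOXA6 (r = 0.97), HOXB7 with HOXB6 (r = 0.85), HOXB5 with HOXB6 (r = 0.84) and HOXA13 with HOXA11 (r = 0.82). Some near pairs, HOXA5 with HOXA6 among them, overlap in the RefSeq table. The use of strand is not given, so the r of such pairs may hold shared reads, which was not tested. The naming of HOXA6 is less sure, as given above.

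The 3 tumors Ab, 11 and Da6 stood at the ends of these relations. Tumor Ab had the highest value of the 29 tumors in all 10 HOXB genes, from 1.89 to 5.52 with a median of 3.22, and the lowest in 4 of 10 HOXA genes, HOXA4 among them at -3.50. Its HOXA10 value of 0.12 was the tumor median. Tumor 11 was the highest in 9 of 10 HOXA genes, with a median of 2.64, and the highest in 0 of 10 HOXB genes, with a median of 0.73. Tumor Da6 was the lowest in 6 HOXA and 3 HOXB genes, with medians of -1.85 and -1.63. The mean of the 4 HOXA members was -1.49 at its lowest (tumor Ab) and 2.47 at its highest (tumor 11), and that of the 5 HOXB members -1.94 (tumor Da6) and 3.71 (tumor Ab). The tumors also stood apart in other markers: Da6 had the highest T cell and basal squamous scores and the lowest luminal score of the 29, and Ab the highest luminal score. A score is the mean z of a marker list over tumors.

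**Figure D4:**
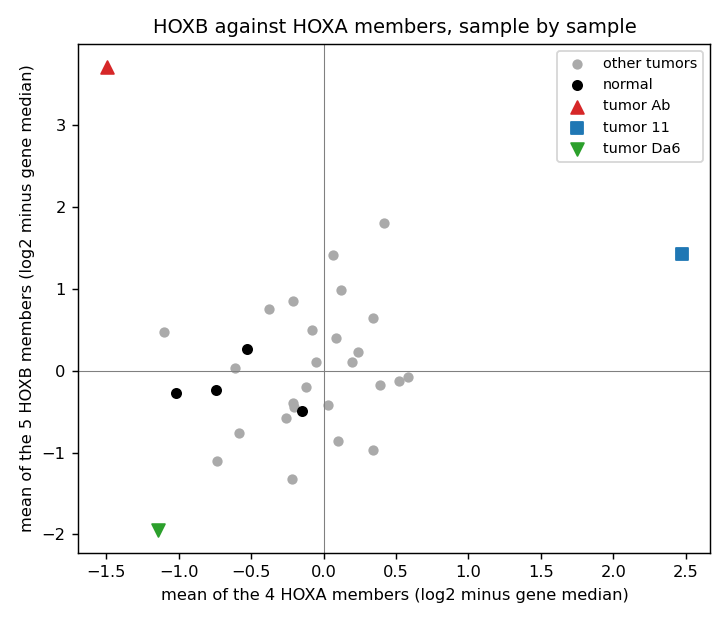
Mean of the 5 HOXB members (y axis) against the mean of the 4 HOXA members (x axis), both as log2 minus gene median, for 4 normals (black) and 29 tumors (grey, 3 marked). Tumor Ab lies at -1.49 on the HOXA axis and 3.71 on the HOXB axis, tumor 11 at 2.47 on the HOXA axis, and Da6 lowest on the HOXB axis at -1.94.

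The genes that followed single members were then placed by chromosome, which the RefSeq table gave for 10895 genes tested. HOXB7 had the most followers, 58 genes that rose with it (0.263% of genes tested) and 191 that fell. Of the 42 risers with a known place, 36 lay on the chromosome that carries the HOXB cluster, which holds 7.63% of all placed genes, and 31 of those were not HOX genes. Named after their values were seen, these included SPOP (r = 0.73), a ubiquitin ligase adaptor, CBX1 (r = 0.64), a heterochromatin protein, and MRPL10 (r = 0.74), a mitochondrial ribosomal protein, all within 25 places of HOXB7, and, farther along, TMEM199 (r = 0.81), COX11 (r = 0.76) and SUMO2 (r = 0.75). Without tumor Ab HOXB7 had 1 riser and 3 fallers. Of the 39 placed genes that fell with HOXB7, 0 lay on that chromosome (limma).

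In tumor Ab many genes around the HOXB cluster lay above their medians. The 41 genes within 25 places of HOXB7 that are not HOX genes had a median of 1.19 in tumor Ab, and 22 of them exceeded 1, while the same median ran from -0.31 to 0.71 in the other 28 tumors. The 10046 genes on other chromosomes had a median of 0.06 in tumor Ab. The rise came in stretches, also far from the cluster. The 30 genes from TMEM97 to TAOK1 (places 164 to 193 from HOXB7) had a median of 2.09 in tumor Ab, all 30 above 0. The 36 genes from CDK3 to SLC9A3R1 (places -280 to -245) had a median of 1.47. The 43 genes from OXLD1 to TNRC6C (places -344 to -302) had 1.18. Each of these medians was at most 0.51 in any other tumor. Nearer to HOXB7, the 15 genes from PHOSPHO1 to SAMD14 (places 12 to 26) had a median of 1.81 in tumor Ab. The 9 genes from SNX11 to GNGT2 (places -8 to 10) had 0.15, within the range of the other tumors (-0.46 to 0.61). Next to the cluster itself, the 10 nearest genes on the HOXB1 side, from SP6 to SKAP1, had a median of 1.25 in tumor Ab, 7 of them over 1, and the 10 nearest on the HOXB13 side, from TTLL6 to ZNF652, a median of -0.13, 2 of them over 1. The stretches from TMEM97, CDK3, OXLD1, PHOSPHO1 and SNX11 were picked from the profile of tumor Ab itself. Over the 28 other tumors the median of the 41 neighbours had r = 0.46 with the mean of the HOXB members, and r with HOXB7 had a median of 0.13 among these neighbours, 0.21 among the 150 genes 26 to 100 places away and -0.01 on other chromosomes. Around HOXA10 in tumor 11, the 41 neighbours had a median of 0.15, within the range of the other tumors.

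**Figure D5:**
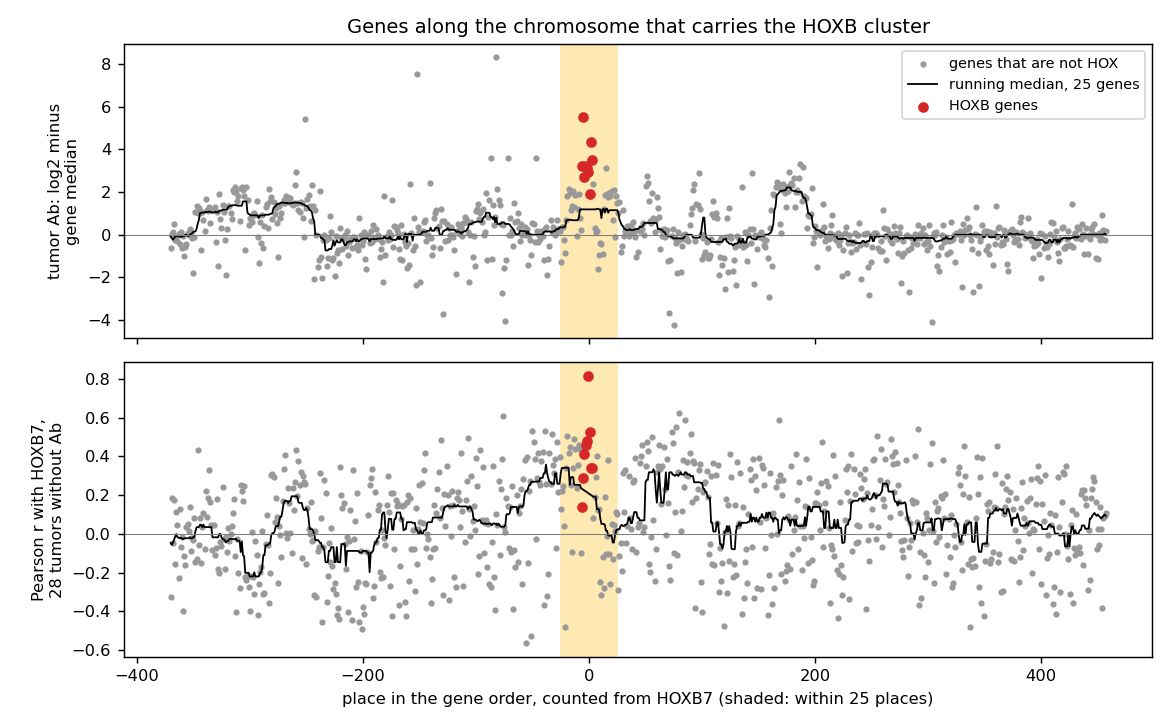
Genes of the chromosome with the HOXB cluster by their place in the gene order counted from HOXB7 (x axis): their log2 value minus gene median in tumor Ab (upper panel) and their Pearson r with HOXB7 over the 28 other tumors (lower panel), with a running median over 25 genes. HOXB genes (red) reach 1.89 to 5.52 in tumor Ab, above a running median that is raised in several stretches.

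HOXA4 had 55 risers (0.25% of genes) and HOXA10 14 (0.0636%), and both sets rested on 1 tumor: HOXA4 had 0 risers without tumor Ab and HOXA10 0 without tumor 11. HOXA5 rose with 7 genes (0.0318%), HOXA13 with 2 (0.00908%), HOXB13 with 1 (0.00454%) and HOXB2 with 0 (0.0%, limma). At an unadjusted p under 0.05 (limma), 328 of 11803 genes with a symbol rose with HOXB2, the fewest for any member. That count is not far from what unrelated genes would give at this threshold. The genes most like each member over 29 tumors are given as a description, and the most like gene was a HOX gene of the same cluster for 6 of the 9. For HOXA13 they were HOXA11 (r = 0.82), RNF43 (r = 0.76), a WNT receptor ligase, and GRIA1 (r = 0.69). For HOXA10 they were RBM22 (r = 0.81), HMGXB3 (r = 0.79) and NTS (r = 0.75), for HOXA4 HEATR9 (r = 0.75), SLC38A3 (r = 0.72) and SLC10A1 (r = 0.71), and for HOXB13 NCOA5, RBM23 and MYO18A (r = 0.65, 0.65 and 0.64). HOXB2 was most like HOXB3 (r = 0.66), ADAMTS19 (r = 0.64) and FUT10 (r = 0.61). HOXA5 was most like HOXA6, HOXA3 and HOXA2 (r = 0.97, 0.84 and 0.77), HOXB3 like HOXB5, HOXB6 and RANBP3L (r = 0.81, 0.76 and 0.69), HOXB5 like HOXB6, HOXB3 and GGA3 (r = 0.84, 0.81 and 0.72), and HOXB7 like HOXB6, TMEM199 and COX11 (r = 0.85, 0.81 and 0.76). Of these, HOXA5 overlaps HOXA6 and HOXA3, and HOXB3 overlaps HOXB5 and HOXB6, as given above.

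The members were last set against marker scores over the tumors, as 81 relations of 9 genes with 9 scores, adjusted over all 22030 genes tested. One passed: HOXB7 rose with the luminal urothelial score (r = 0.59, permutation p = 0.00437, rho = 0.53, permutation p = 0.00288, adjusted p = 0.035 by limma), a score with which 2.36% of genes moved. Without the 2 tumors farthest from the score's median r was 0.26, and without tumor Ab it was 0.49 and not called. With the T cell score all 9 members had negative r, from -0.47 (HOXA5) to -0.16 (HOXA10), and 4 had an unadjusted permutation p under 0.05, but 0 passed the adjustment (2.66% of genes did). Smooth muscle and stromal fibroblast scores, with which 1.49% and 3.31% of genes moved, had r from -0.23 to 0.26 with the members, 0 being called or under 0.05 unadjusted. The basal squamous score (0.622% of genes), the proliferation score (1.54%), the olfactory share (9.55%) and the medians of the other genes on the chromosomes with the HOXA cluster (0.118%) and the HOXB cluster (0.0%) called 0 members by limma. For the HOXB chromosome, all 5 HOXB members had positive r, from 0.23 to 0.39, and 1 of the 9 members (HOXB7, permutation p = 0.0387) was under 0.05 unadjusted. For the basal squamous score 2 were, and for proliferation, olfactory share and the HOXA chromosome 0.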

How the data were processed

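RNA from 29 tumors and 4 normals was made into libraries with ScriptSeq v2 after removal of ribosomal RNA and sequenced on a HiSeq 4000 in paired ends. The authors aligned reads to CanFam3.1 with COBWeb in Strand NGS, normalized gene values by TMM and, separately, by DESeq, and deposited log2 values minus each gene's median over the 33 samples. The lowest value that samples share was read from the values as a normalized value of 1. Both tables as analysed break off inside their last row, and that row was dropped. Total counts are not known from log2 values, so no count test was run. The paper gives an average number of reads per sample, but the depth of each sample is unknown. The plan had assumed linear values.

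For the comparison of the groups, limma 3.58.1 (R 4.3.3, lmFit, then eBayes with trend) was used, with calls at an adjusted p up to 0.05 and 2-fold or more. Co-variation and score fits used the same tool on the 29 tumors, and genes were said to rise or fall with a member at an adjusted p of at most 0.05. Pearson and Spearman p-values are two-sided, from 100000 permutations, and tumor-normal p-values for single genes from all 40920 splits. On simulated data, 181 of 200 changed genes (24471 genes) and 157 of 200 related genes (22030 genes) were recovered, with 10 and 11 others called. The planted change was larger than the difference of any member. The planted r was above that of every member pair but HOXB3 with HOXB5. Noise was drawn independently for each gene, with the same spread in both groups. These counts therefore do not give the recovery for differences and relations of the size reported here. Gene order came from RefSeq (UU_Cfam_GSD_1.0), which placed 11073 of 12202 symbols, and no coordinates are given since the builds differ.

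The members and the gene lists were chosen with earlier results of these data known. Named genes are the members, other HOX genes, cofactors and regulators called in both tables, and the 3 genes with the largest r per member among genes above the lowest value in at least 15 tumors; others are marked. One tumor or normal is 1 sample, and p-values measure the spread between dogs.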

Additional observations from a re-analysis of the deposited data

How the results depend on the processing

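Of the 3 called members, HOXA10 was called in all 15 alternatives and HOXB13 in 14, with changes from 1.46 to 1.89 on the log2 scale and adjusted p from 0.00253 to 0.132 (limma), the call being lost with the olfactory share as a covariate, where the change was 1.496. HOXB7 was called in 9, with changes of 0.65 or more and adjusted p from 0.0155 to 0.492. With the olfactory share as a covariate, which is tied to group as given above, 1 member was called higher, HOXA10 at 1.42. In that fit 2061 genes were higher and 9102 lower. Leaving out each normal gave 2 to 3 members higher, 2222 to 2695 genes higher and 10596 to 11067 lower. The DESeq-normalized table called 1377 genes higher, the adjusted p alone 5603, and a test of only those genes with a median above their floor 5543 lower. The DESeq-normalized table moved the median of all genes to -1.11, from -0.84.

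HOXA4, HOXA13, HOXB3 and HOXB5, which were not called in any alternative, changed sign. HOXA4 read 0.28 with the olfactory covariate and from -0.66 to 0.080 when each normal was left out, HOXB5 from -0.29 to 0.072. HOXA13 read -0.082 and HOXB3 -0.055 in the DESeq-normalized table, and HOXB3 -0.11 with the covariate. The cause was not tested.

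Among pairs within HOXB, the call of HOXB3 with HOXB5 was lost, leaving 0, on ranks (median r 0.39), over the tumors with a number as title (median r 0.27) and without the 2 tumors farthest from the member's median (median r 0.38). Over the tumors with letters as title the median r was 0.80 within HOXB and 0.24 within HOXA. Within HOXA, 1 pair was called over the tumors with a number as title, and the median r without the 2 farthest tumors was 0.25. Leaving out tumor Ab, 11 or Da6, chosen after seeing the data, gave medians from 0.39 to 0.59 within HOXB, 0.33 to 0.51 within HOXA and 0.0086 to 0.35 between. The luminal relation of HOXB7 was lost, leaving 0 members, on ranks, without tumor Ab or Da6, and without tumors 5, 9 and Po.

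With 4 normals and no counts, the precision of a single value is not known. No member had a normal sample far enough from the other 3 to stand out by Dixon's criterion. No paired analysis was possible because the normals and tumors come from different dogs and share no replicate numbers.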
